A study of Homo sapiens with 6 samples.

Results

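The transcripts described here are 39 genes of double-strand break repair, its checkpoint and the Fanconi pathway, chosen by symbol from the 59715 genes of a count table of HCT116 cells. All 39 symbols matched a gene ID, and all 39 had enough counts to be tested among 14543 genes. HCT116 is an established human colorectal carcinoma line with defective mismatch repair. RNA was compared between 3 libraries of wild-type cells (MLL4WT) and 3 libraries of cells in which MLL4, a histone H3 lysine 4 methyltransferase, had been knocked out (MLL4KO). Both kinds of cells grew in the same serum-supplemented medium and the labels name no DNA-damaging or other treatment, so the levels are those of cells to which, as far as the labels say, no damage was added. Nothing in the labels tells whether the knockout cells are 1 clone, where the deletion lies, or whether the 3 libraries per genotype are separate cultures, and the p-values cover only the spread between these libraries.

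A broken chromosome is first recognised and cut back to single strands by the nuclease complex that holds MRE11 and RAD50, with RBBP8 (CtIP) as its cofactor. In homologous recombination, BRCA1 with BARD1 and then PALB2 and BRCA2 load a recombinase onto the resected strand, helped by the recombinase paralogs RAD51B, RAD51C, RAD51D, XRCC2 and XRCC3. End joining by the Ku proteins XRCC5 and XRCC6, the kinase PRKDC and the ligase pair XRCC4 and LIG4 competes for the same ends without a template. The Fanconi proteins act on crosslinked DNA: a core complex, whose ubiquitin ligase is FANCL, marks the FANCD2 and FANCI pair, and recombination follows. ATM, ATR and the kinases CHEK1 and CHEK2 below them stop the cell cycle meanwhile.

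Total counts ran from 6829400 in MLL4WT replicate 1 to between 14775580 and 19736751 in the other 5 libraries, and 0.424% to 0.461% of all counts fell in the 39 genes. Levels are given as CPM, counts relative to library size after scaling by TMM, a factor computed from the genes that differ little. Values are mean ± SD over n = 3 libraries unless given per library. A gene is said to have risen or fallen when its adjusted p in the edgeR quasi-likelihood test over all 14543 genes is under 0.05. MLL4WT replicate 1 stood apart from the other libraries on the second principal component (16.4% of the variance). It alone carried the code in its column name that was read as a flow cell. The headers do not say what that code stands for. KMT2D, the gene usually meant by MLL4, was at 239.7, 231 and 234 CPM in MLL4WT and at 229.5, 243 and 225 CPM in MLL4KO. KMT2B, a relative once given the same name, was at 94.1, 90.3 and 87.2 CPM in MLL4WT and at 67.1, 61.9 and 60.6 CPM in MLL4KO, a 1.42-fold fall (edgeR adjusted p = 2.33e-05). Because counts cover the whole gene, a small deletion can leave them as they were, and neither gene checks the labels. Of 9 colon epithelial markers, EPCAM, KRT8, KRT18 and KRT19 were at 186.6 CPM or more in every library and fell, CDX2 (28.7 ± 2.25 and 30.5 ± 1.94 CPM) and CDH1 (10.9 ± 0.932 and 11.3 ± 0.725 CPM) did not pass, CDX1 had no count and LGR5 and VIL1 were under 1 CPM on average, and the 9 summed to between 1607 and 1670 CPM in MLL4WT and between 1082 and 1105 CPM in MLL4KO. Markers of leukocytes and of endothelium summed to between 1.90 and 6.72 CPM in each library, and those of fibroblasts to between 30.02 and 35.4 CPM, most of it COL1A1.

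Of the 39 repair genes, 13 fell and 3 rose, and 23 missed the threshold. The share called, 41.0%, lay beside 41.4% of all tested genes, so the number of changed repair genes was near that of the whole transcriptome. The directions were less even. Falls made up 33.3% of the repair genes against 21.6% of all genes, and rises 7.69% against 19.8%. The changes were small: the median log2 fold change was -0.08 against -0.0044 for all genes, no repair gene changed 2-fold, and 3 of them were called and at least 1.5-fold apart (11.9% of all tested genes were) and 12 at least 1.2-fold (30.5%). In 18 of the 39 genes, or 46.2%, the genotypes had no overlapping library, against 52.5% of all tested genes. Without MLL4WT replicate 1, 15 genes fell and 4 rose, and 15 of the 16 calls were shared, while 49.5% of all genes tested were called. All 16 called genes had the fitted sign within each column-name code that held both genotypes, as had 14 of the 23 genes not called. The libraries under these codes are those of the fit, so this is not a separate check. The balance also depended on library scaling, since 10 fell and 6 rose with total counts alone and 11 fell and 5 rose with upper quartile factors. All genes shifted alike: with total counts alone the median log2 difference was -0.02 for the repair genes and 0.06 for all genes, and with upper quartile factors -0.03 and 0.05.

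**Figure D1:**
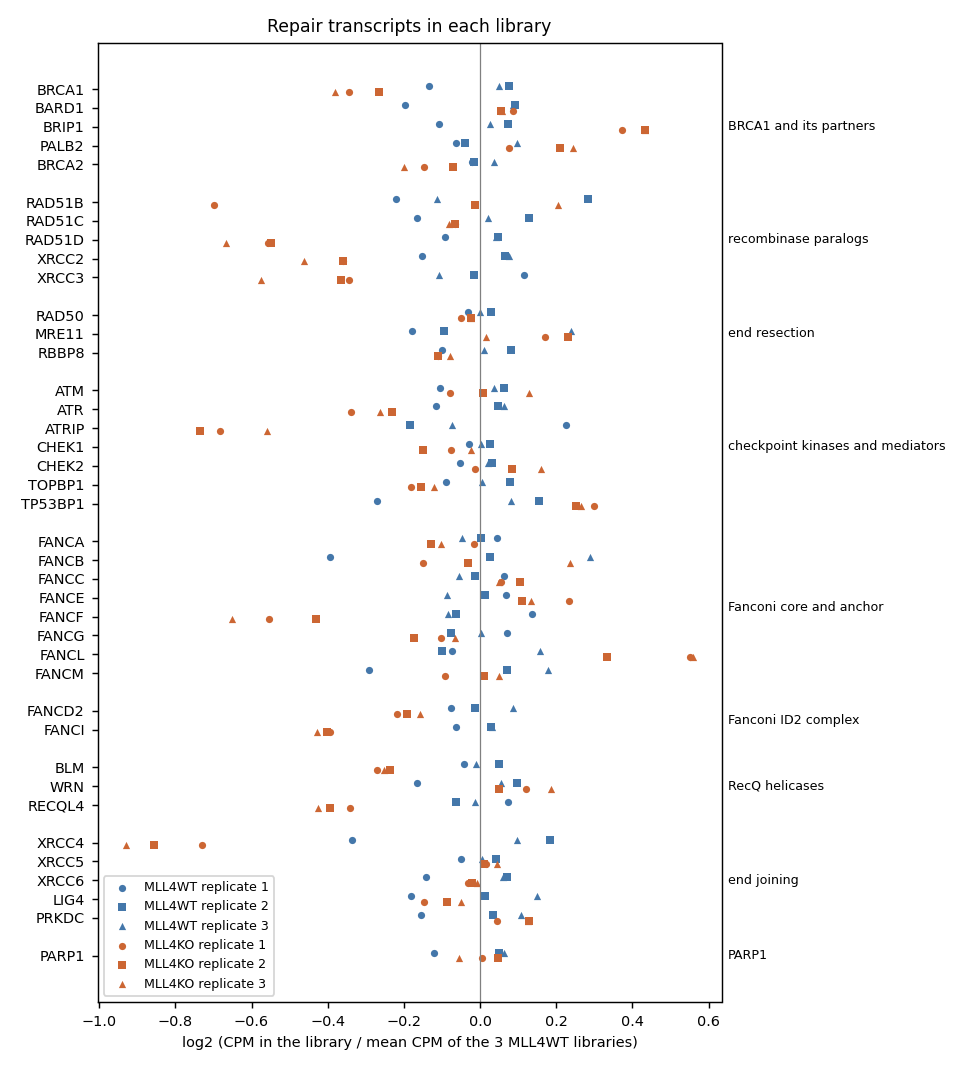
Each repair transcript in each library, as log2 of its CPM over the mean CPM of the 3 MLL4WT libraries, with MLL4WT in blue, MLL4KO in orange and replicates 1 to 3 as circles, squares and triangles. XRCC4, ATRIP and RAD51D lie farthest left in MLL4KO, FANCL and BRIP1 farthest right, and for XRCC5, XRCC6 and PARP1 the genotypes overlap near 0.

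Among the genes that load the recombinase, BRCA1 and BRIP1 moved in opposite directions. BRCA1 (chromosome 17, 43044295 to 43170245), the ubiquitin ligase that directs repair towards recombination, was at 75.8, 87.7 and 86.2 CPM in MLL4WT and at 65.6, 69.2 and 64.0 CPM in MLL4KO. Every MLL4KO library was below every MLL4WT library, a 1.27-fold fall (log2 -0.34 ± 0.06 SE, edgeR adjusted p = 0.000889). BRIP1 (chromosome 17, 61681266 to 61863521), the helicase that binds BRCA1, was at 39.5, 44.8 and 43.4 CPM in MLL4WT and at 55.1, 57.4 and 57.5 CPM in MLL4KO. It rose 1.32-fold with no overlap between the genotypes (log2 0.40 ± 0.06, edgeR adjusted p = 0.000269).

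The other 3 genes of that group did not pass the test. BRCA2 (chromosome 13, 32315474 to 32400266), which carries the recombinase to single-stranded DNA, was at 40.7, 40.9 and 42.4 CPM in MLL4WT and at 37.4, 39.3 and 36.0 CPM in MLL4KO. Its genotypes did not overlap, but the difference was 1.103-fold (log2 -0.14 ± 0.06, edgeR adjusted p = 0.0925). BRCA2 is a long transcript of 36.3% GC, and its difference passed once trends with GC content and length were removed (log2 -0.31, edgeR adjusted p = 0.0011). PALB2, the bridge between BRCA1 and BRCA2, was at 24.2 ± 1.47 CPM in MLL4WT against 27.4 ± 1.69 CPM in MLL4KO (edgeR adjusted p = 0.111, and 0.0341 with total counts alone). BARD1, the obligate partner of BRCA1, was at 25.9 ± 2.88 and 27.1 ± 0.317 CPM (log2 0.04 ± 0.08, edgeR adjusted p = 0.705).

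Of the 5 recombinase paralogs, 3 fell and none rose. RAD51D (chromosome 17, 35092208 to 35121522) was at 30.8, 33.9 and 33.8 CPM in MLL4WT and at 22.3, 22.4 and 20.7 CPM in MLL4KO. This 1.51-fold fall (log2 -0.60 ± 0.07, edgeR adjusted p = 4.14e-05) was among the largest of the 39 genes. XRCC2 (chromosome 7, 152644779 to 152676165), which binds RAD51D, was at 29.6, 34.4 and 34.6 CPM in MLL4WT and at 25.6, 25.6 and 23.9 CPM in MLL4KO. It fell 1.33-fold with no overlap (log2 -0.41 ± 0.08, edgeR adjusted p = 0.00105).

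XRCC3 (chromosome 14, 103697609 to 103715504), which pairs with RAD51C, was at 68.5, 62.6 and 58.7 CPM in MLL4WT and at 49.9, 49.1 and 42.5 CPM in MLL4KO. It fell 1.33-fold (log2 -0.41 ± 0.08, edgeR adjusted p = 0.00104). Of its exon bases, 76.7% lie opposite exons of KLC1, a kinesin light chain gene, and the library kit is not said to keep strand, so reads of the 2 genes cannot be told apart there. KLC1 itself fell 1.14-fold (edgeR adjusted p = 0.0305). RAD51C was at 78.8 ± 7.999 CPM in MLL4WT against 75.04 ± 0.509 CPM in MLL4KO (log2 -0.08 ± 0.07, edgeR adjusted p = 0.326), and without MLL4WT replicate 1 its difference passed (log2 -0.14, edgeR adjusted p = 0.0142). RAD51B was scarce, with 14 to 43 counts per library, and its standard error was the largest of the 39 genes (log2 -0.16 ± 0.28, edgeR adjusted p = 0.672).

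None of the 3 resection genes passed the test. RAD50, the ATPase that tethers broken ends, was at 103 ± 2.19 CPM in MLL4WT against 101 ± 1.103 CPM in MLL4KO. MRE11, the nuclease, was at 18.7 ± 2.97 and 20.6 ± 1.57 CPM. RBBP8, which starts resection, was at 122 ± 7.69 and 114 ± 1.41 CPM (edgeR adjusted p between 0.128 and 0.579 for the 3 genes). The RBBP8 difference passed without MLL4WT replicate 1 (log2 -0.14, edgeR adjusted p = 0.00334). With GC and length trends removed, RBBP8 and RAD50 both passed downward (log2 -0.17 and -0.18, edgeR adjusted p = 0.00383 and 0.00277).

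In the checkpoint group, ATR and its partner ATRIP both fell, and ATM did not pass. ATR (chromosome 3, 142449235 to 142578826), the kinase that answers to single-stranded DNA at stalled forks, was at 44.4, 49.7 and 50.3 CPM in MLL4WT and at 38.1, 41.0 and 40.2 CPM in MLL4KO. That is a 1.22-fold fall with no overlap (log2 -0.29 ± 0.07, edgeR adjusted p = 0.00387). ATRIP (chromosome 3, 48446710 to 48467645), the subunit that brings ATR to coated DNA, was at 23.0, 17.4 and 18.7 CPM in MLL4WT and at 12.3, 11.8 and 13.4 CPM in MLL4KO. It fell 1.55-fold (log2 -0.63 ± 0.11, edgeR adjusted p = 0.000678). ATRIP shares 27.9% of its exon bases with TREX1, a nuclease gene on the same strand, and TREX1 was at 12.6 ± 1.84 and 11.5 ± 0.355 CPM (edgeR adjusted p = 0.522).

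ATM (chromosome 11, 108222484 to 108369102), the kinase that answers to double-strand breaks, was at 35.2, 39.5 and 38.8 CPM in MLL4WT and at 35.8, 38.1 and 41.4 CPM in MLL4KO. The genotypes overlapped (log2 0.01 ± 0.07, edgeR adjusted p = 0.949). CHEK1 was at 81.3 ± 1.57 and 76.8 ± 3.40 CPM and CHEK2 at 37.3 ± 1.18 and 39.4 ± 2.37 CPM (edgeR adjusted p = 0.213 and 0.440). TOPBP1, the activator of ATR, fell 1.12-fold from 116 ± 6.75 CPM to 105 ± 2.22 CPM (edgeR adjusted p = 0.0297). That call was lost with total counts alone (log2 -0.10, edgeR adjusted p = 0.147) and without any 1 library other than MLL4WT replicate 1 (edgeR adjusted p from 0.0692 to 0.152). TP53BP1, which holds ends back from resection, rose 1.19-fold from 88.7 ± 13.4 CPM to 107 ± 1.85 CPM (edgeR adjusted p = 0.0380). MLL4WT replicate 1 gave its lowest value, 73.6 CPM, and the call was lost without any 1 of the MLL4KO replicates (edgeR adjusted p from 0.0756 to 0.0998) and with GC and length trends removed (log2 0.14, edgeR adjusted p = 0.171). Of the TP53BP1 exon bases, 28.7% lie opposite TUBGCP4, which was at 89.9 ± 2.29 and 98.8 ± 5.05 CPM (edgeR adjusted p = 0.0568).

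**Figure D2:**
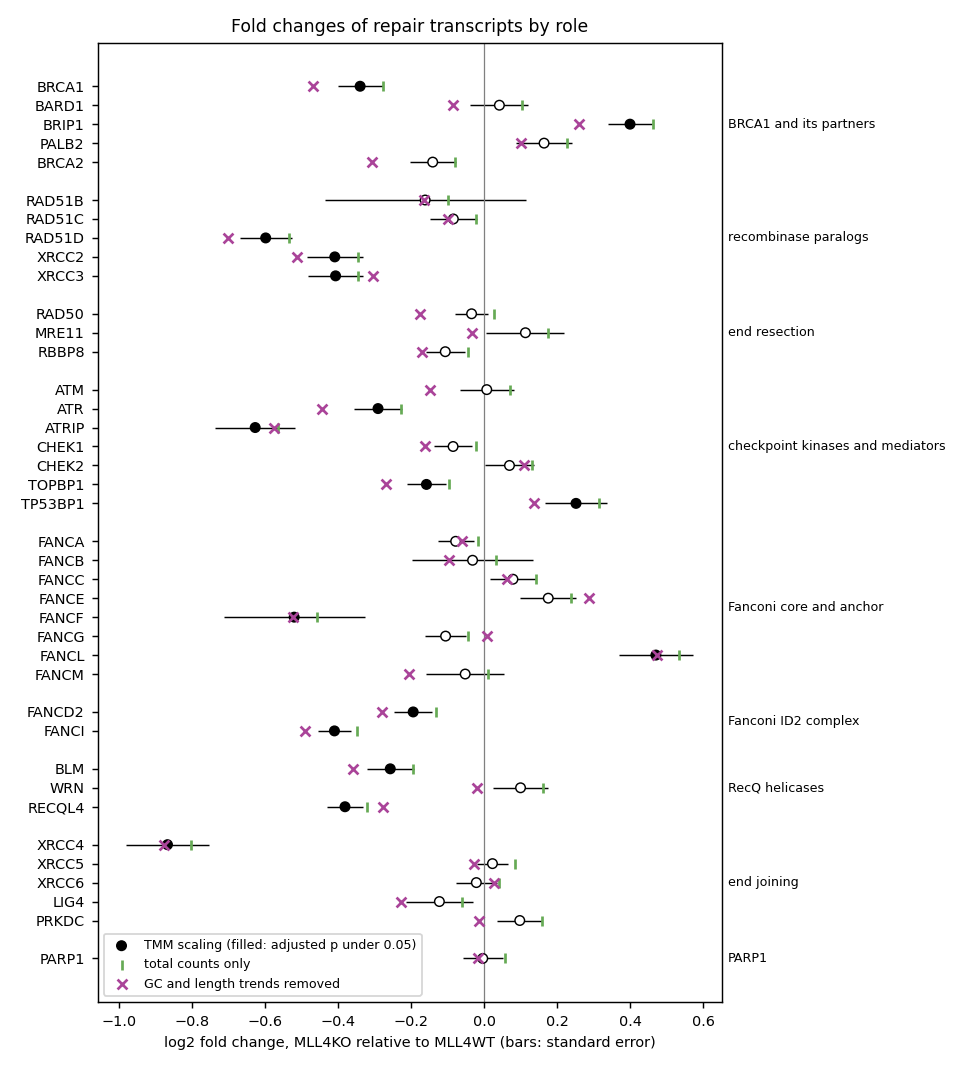
Log2 fold change of each repair transcript, MLL4KO relative to MLL4WT, with its standard error (bars), filled where the adjusted p was under 0.05, beside the value with total counts alone (green) and with GC and length trends removed (purple). BRCA2 and RAD50 lie further left with the trends removed, at -0.31 and -0.18.

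Within the Fanconi core complex and its anchor, FANCL rose, FANCF fell and the other 6 genes did not pass. FANCL (chromosome 2, 58159243 to 58241372), the ubiquitin ligase subunit, was at 12.8, 12.6 and 14.99 CPM in MLL4WT and at 19.697, 16.9 and 19.8 CPM in MLL4KO. It rose 1.39-fold, the largest rise of the 39 genes, with no overlap (log2 0.47 ± 0.10, edgeR adjusted p = 0.00297). Of its exon bases 18.7% lie opposite VRK2, a kinase gene that fell 1.30-fold (edgeR adjusted p = 0.00298). FANCF (chromosome 11, 22622890 to 22625841), an adaptor of the core complex, was at 4.01, 3.50 and 3.45 CPM in MLL4WT and at 2.49, 2.71 and 2.33 CPM in MLL4KO. It fell 1.43-fold (log2 -0.52 ± 0.19, edgeR adjusted p = 0.0475) on 27 to 60 counts per library. That call was lost in 13 of 18 other settings, leaving out any 1 library among them (edgeR adjusted p from 0.0791 to 0.121).

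FANCA, FANCB, FANCC, FANCE, FANCG and FANCM, the scaffold, adaptor and translocase genes of the same group, differed by 1.02-fold to 1.13-fold (edgeR adjusted p from 0.0863 to 0.895). Their MLL4WT levels ran from 7.62 ± 1.76 CPM for FANCB, on chromosome X, to 158 ± 4.99 CPM for FANCA. FANCE, which links the core to FANCD2, had no overlap between the genotypes at 20.3 ± 1.102 and 22.6 ± 1.04 CPM, and its difference passed upward without MLL4WT replicate 1 (log2 0.21, edgeR adjusted p = 0.0322).

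FANCI and FANCD2, the clamp that the core complex marks, both fell. FANCI (chromosome 15, 89243949 to 89317261) was at 169, 179 and 179.9 CPM in MLL4WT and at 134, 133 and 131 CPM in MLL4KO. The 1.33-fold fall (log2 -0.41 ± 0.05) had the smallest adjusted p of the 39 genes (edgeR, 2.50e-05). FANCD2 (chromosome 3, 10026414 to 10101930) fell 1.14-fold from 109.7 ± 6.25 CPM to 96.3 ± 2.02 CPM (edgeR adjusted p = 0.0111). The FANCD2 call was lost with total counts alone (log2 -0.13, edgeR adjusted p = 0.0580) and on leaving out replicate 3 of MLL4WT or either replicate 1 or 2 of MLL4KO (edgeR adjusted p from 0.0585 to 0.0768).

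Of the 3 RecQ helicases, RECQL4 and BLM fell. RECQL4 (chromosome 8, 144511288 to 144517845), a helicase of replication start and repair, was at 200.5, 182 and 189 CPM in MLL4WT and at 150.4, 145 and 142 CPM in MLL4KO. It fell 1.30-fold with no overlap (log2 -0.38 ± 0.05, edgeR adjusted p = 7.76e-05). The 95 tested genes that start within 5 Mb of RECQL4 had a median log2 fold change of -0.14. BLM, which dissolves recombination intermediates, fell 1.195-fold from 33.6 ± 1.101 CPM to 28.2 ± 0.314 CPM (edgeR adjusted p = 0.00677, and 0.0526 by the DESeq2 Wald test). WRN, on the other arm of chromosome 8, was at 32.3 ± 3.07 and 35.1 ± 1.65 CPM (edgeR adjusted p = 0.324).

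XRCC4 was the only called gene of the 5 in end joining and had the largest change of all 39 genes. XRCC4 (chromosome 5, 83077498 to 83353787), the scaffold that stabilises the ligase LIG4, was at 22.3, 32.0 and 30.1 CPM in MLL4WT and at 16.96, 15.5 and 14.8 CPM in MLL4KO. It fell 1.83-fold with no overlap (log2 -0.87 ± 0.11, edgeR adjusted p = 0.00012), and its log2 fold change stayed between -0.96 and -0.77 in 18 other settings. LIG4 was at 17.3 ± 1.97 CPM in MLL4WT against 16.2 ± 0.546 CPM in MLL4KO (log2 -0.12 ± 0.09, edgeR adjusted p = 0.316). With GC and length trends removed, LIG4 passed downward (log2 -0.23, edgeR adjusted p = 0.0390).

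PRKDC, the Ku genes and PARP1 did not pass the test. PRKDC (chromosome 8, 47773108 to 47960183), the DNA-dependent kinase, was at 588, 669.7 and 705 CPM in MLL4WT and at 674, 715 and 714 CPM in MLL4KO. The genotypes overlapped (log2 0.10 ± 0.06, edgeR adjusted p = 0.235), and with total counts alone the difference passed upward (log2 0.16, edgeR adjusted p = 0.0497). XRCC5 and XRCC6, the Ku subunits, were at 639.5 ± 20.5 and 961 ± 77.5 CPM in MLL4WT and at 650.0 ± 8.73 and 947 ± 8.04 CPM in MLL4KO (edgeR adjusted p = 0.704 and 0.784). Without MLL4WT replicate 1, which held the lowest XRCC6 level, XRCC6 passed downward (log2 -0.08, edgeR adjusted p = 0.00333). PARP1 (chromosome 1, 226360691 to 226408079), the sensor of strand breaks, was at 298, 335 and 338 CPM in MLL4WT and at 325, 334 and 311 CPM in MLL4KO, all 3 inside the MLL4WT range (log2 -0.0040 ± 0.05, edgeR adjusted p = 0.962). The standard errors of these 4 genes, 0.04 to 0.06 on the log2 scale, were small beside the falls in XRCC4, ATRIP and RAD51D.

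Levels can be compared between genes only per length, here the longest transcript of each gene. In MLL4WT, XRCC6 was highest at 355 CPM per kb, followed by XRCC5 at 170.0, PARP1 at 81.7, RECQL4 at 48.9 and PRKDC at 48.4 CPM per kb. The lowest were RAD51B at 0.933 and FANCF at 1.24 CPM per kb. BRCA1 stood at 11.4, BRCA2 at 3.45, ATR at 5.84 and ATM at 2.88 CPM per kb. The called genes lay between FANCF and RECQL4, and the 3 highest genes, XRCC6, XRCC5 and PARP1, were not called.

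**Figure D3:**
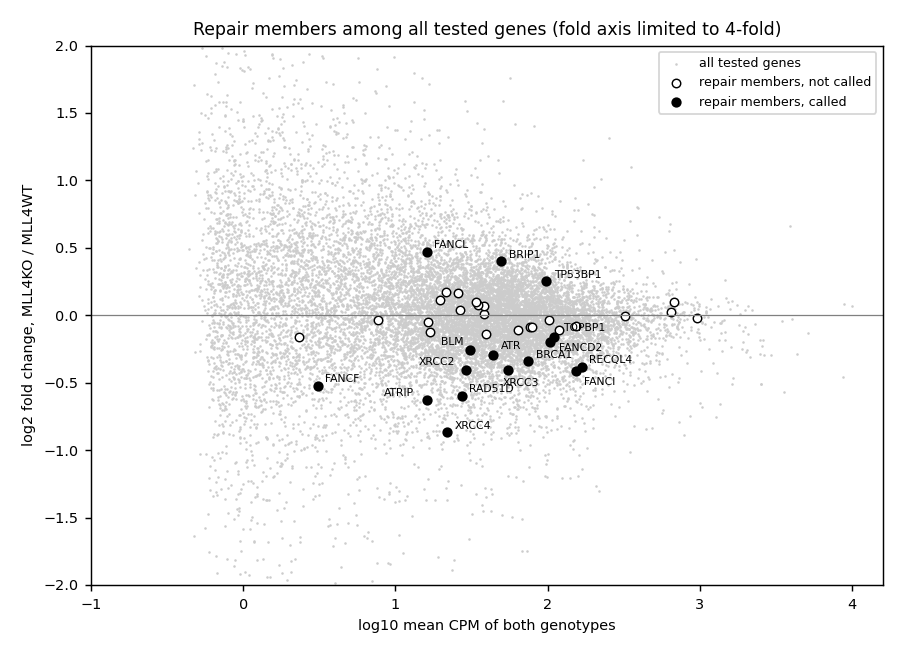
Log2 fold change (MLL4KO over MLL4WT) against log10 mean CPM for all 14543 tested genes in grey and the 39 repair genes in black, filled where called. The fold axis stops at 4-fold, beyond which 188 tested genes lie. The called repair genes sit mostly below 0, and none reaches 2-fold.

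Ratios of 2 transcripts within a library do not depend on how libraries are scaled. The log2 ratio of BRCA1 to BARD1, per kb, was 1.34, 1.26 and 1.24 in MLL4WT and 0.85, 0.96 and 0.84 in MLL4KO, lower in every MLL4KO library. LIG4 to XRCC4 was -1.84, -2.17 and -1.95 in MLL4WT and -1.42, -1.23 and -1.12 in MLL4KO, higher in every MLL4KO library. In both pairs 1 subunit fell and its partner did not pass. FANCD2 to FANCI moved from -0.82 ± 0.05 to -0.60 ± 0.05, the larger fall being that of FANCI. BRCA2 to PALB2 moved from -0.81 ± 0.05 to -1.13 ± 0.12 with no overlap, although neither gene was called alone.

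The 2 apical kinases also parted. ATR to ATM was 1.008, 1.004 and 1.046 in MLL4WT and 0.76, 0.78 and 0.63 in MLL4KO. ATR to ATRIP moved from 0.45 ± 0.31 to 0.82 ± 0.11, although both genes fell. CHEK1 to CHEK2 moved from 0.43 ± 0.02 to 0.26 ± 0.09, although neither was called alone. In both of these ratios the genotypes did not overlap. XRCC5 to XRCC6, the Ku pair, was at -1.06 ± 0.08 and -1.02 ± 0.01, and RAD50 to MRE11 at 2.21 ± 0.22 and 2.03 ± 0.12, and both pairs overlapped. No test was run on the ratios.

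**Figure D4:**
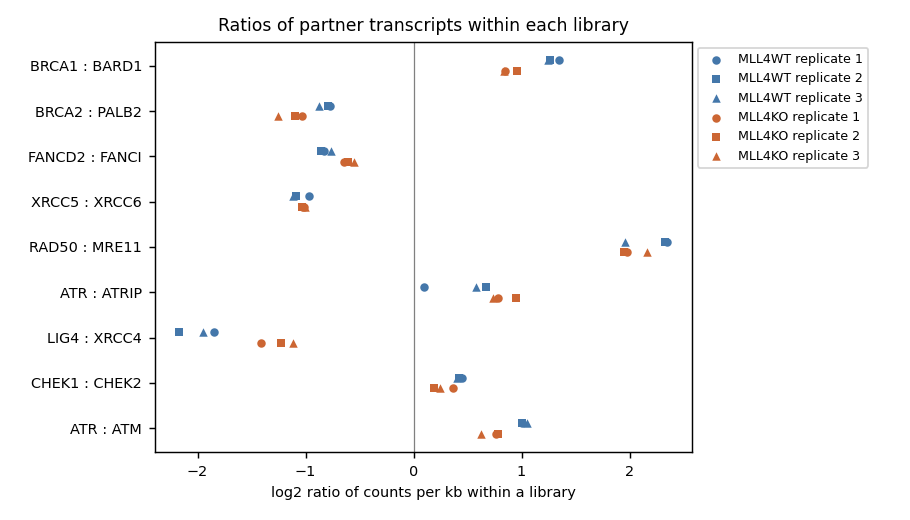
Log2 ratio of counts per kb of 2 partner transcripts within each library, MLL4WT in blue and MLL4KO in orange, replicates 1 to 3 as circles, squares and triangles. BRCA1 over BARD1 and LIG4 over XRCC4 separate the genotypes, and XRCC5 over XRCC6 does not.

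The repair genes share features that the choice of genes did not use. Their longest transcripts have a median of 4592 bases against 3442 for all tested genes, and a median GC content of 42.8% against 49.0%. Across all tested genes, longer and GC-poorer transcripts tended upward: the median log2 fold change ran with genes cut into 5 equal groups, from -0.12 in the shortest to 0.10 in the longest, and from 0.07 in the lowest in GC to -0.11 in the highest. Of the repair genes, 28 are longer and 29 lower in GC than the median tested gene, while falls outnumbered rises among them. With both trends removed per library, 18 repair genes fell and 3 rose, with -0.16 as their median log2 difference, while 43.0% of all genes in that fit were called at a median of -0.0044. The 3 called falls of highest GC, RECQL4, XRCC3 and ATRIP, became smaller (log2 -0.28, -0.30 and -0.58) and remained called.

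**Figure D5:**
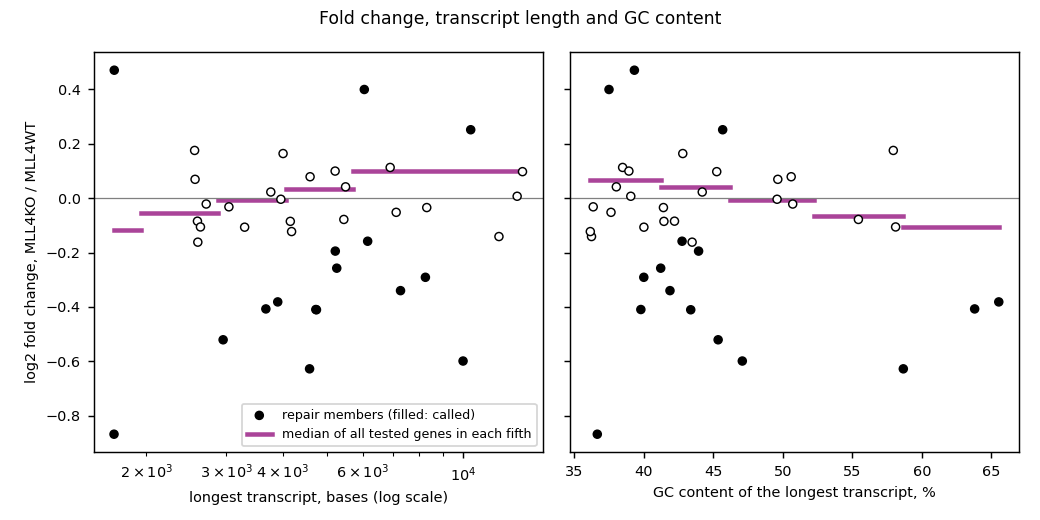
Log2 fold change of the repair genes against the length of the longest transcript (left, log scale) and its GC content (right), filled where called, with the median of all tested genes in each of 5 equal groups as purple bars. The medians rise with length from -0.12 to 0.10 and fall with GC from 0.07 to -0.11, while most called repair genes lie below them.

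Replication transcripts moved beside these genes. Of 26 genes of the G1/S transition, 14 fell and 2 rose, and their summed level was 5119 to 5263 CPM in the MLL4WT libraries and 4512 to 4528 CPM in the MLL4KO libraries. Of 25 G2/M genes 12 rose and 6 fell, with sums of 4295 to 4574 and 4548 to 4672 CPM. The shares called were 61.5% of the G1/S genes and 72.0% of the G2/M genes, against 41.4% of all tested genes. Falls made up 53.8% of the G1/S and 24% of the G2/M genes against 21.6% of all genes. Rises made up 7.69% and 48% against 19.8%. CCNA2, cyclin A2, fell from 94.2 ± 1.61 to 70.1 ± 0.320 CPM (edgeR adjusted p = 2.14e-05). MKI67 rose 1.11-fold (edgeR adjusted p = 0.0445), and PCNA and CCNB1 did not pass (edgeR adjusted p = 0.0715 and 0.186). The MKI67 call was lost without any 1 of the MLL4KO replicates and with GC and length trends removed. PCNA passed upward in 8 of 18 other settings and CCNB1 downward in 2. The part of these transcripts in the falls of repair genes was not tested.

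E2F-type letters occurred in promoters of repair genes that fell, that rose and that were not called. E2F factors drive genes of S phase. Of the 39 genes, 34 are in the RefSeq table of promoters (GRCh38.p14, 250 bases before to 50 after the start); FANCI, WRN, RECQL4, XRCC5 and PRKDC are not. The motif TTGGCGC was searched on both strands, then the motif TTCGCGC and also the motif GGCGGGA. At least 1 of them was in 9 of the 11 promoters of genes that fell, 2 of the 3 of genes that rose and 8 of the 20 of genes not called, against 19.3% of 27305 promoters of the same length. RAD51D and ATR fell and held none. BRCA1 is among the 9, although only 1 of 33 GENCODE transcripts starts within 500 bases of its table start. For RAD51B, not called, 1 of 24 does. The 27305 promoters were not limited to genes expressed in these cells. The ETS-type core CCGGAAG was in 12 of the 34 against 10.7% of all promoters, the CHR element TTTGAA in 3 against 15.4%, CCAAT in 15 against 35.7%, the NRF1-type letters GCGCATG in 6 against 4.67%, and TATAAA in none against 11.95%. A match is a run of letters and does not show that a factor binds.

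The E2F-type match nearest the start is shown for 10 called genes, in capitals with 10 bases on each side, 5′ to 3′ on the strand of the gene. BRCA1 is left out because its table start has 1 of 33 GENCODE transcripts starting within 500 bases. The first 8 lines are genes that fell and the last 2, BRIP1 and FANCL, genes that rose.
XRCC4: caccggaaaaGGCGGGAtttagatcac
ATRIP: acctgccgaaTCCCGCCcgtggacctc
FANCF: aagtagggccTTCGCGCacctcatgga
XRCC2: tggcgttggtGGCGGGAaagttgagtc
XRCC3: ggagcaggacGGCGGGAagaggagtgc
BLM: gcaagcttccGGCGGGAagtgagccag
FANCD2: cgtcgggcctGGCGGGAaagtcgaaaa
TOPBP1: cgcgcggttgGCGCGAAagtcggttcc
BRIP1: gggggcgggaGGCGGGAattcgtctcg
FANCL: tccaggatctTCCCGCCaaggctgggg
In 7 of these 10 the capitals begin within 20 bases of the start. XRCC4 has it 51 bases before the start (chr5:83077486-83077512, plus strand), and FANCL 98 bases before (chr2:58241407-58241433, minus strand). ATRIP, which fell, has it farthest away, 119 bases before (chr3:48446608-48446634, plus strand). The 120 bases before the starts of XRCC4, FANCL and ATRIP also hold an annotated exon of another gene. XRCC4, XRCC2, XRCC3, BLM and FANCD2, which fell, and BRIP1, which rose, hold the same letters GGCGGGA on the strand of the gene. In the BRIP1 line the lower-case letters just before the capitals also spell GGCGGGA.

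BRIP1 is the rising gene whose 120 bases before the start hold no annotated exon, and these are shown whole with CCAAT boxes on the opposite strand in capitals (chr17:61863529-61863648, minus strand).
BRIP1 upstream: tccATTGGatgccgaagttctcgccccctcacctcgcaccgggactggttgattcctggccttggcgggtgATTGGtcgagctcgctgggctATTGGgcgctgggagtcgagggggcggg
Its 3 boxes begin 117, 49 and 28 bases before the start.

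Other genes of the same pathways, 86 matched and tested, fell more often than they rose as well: 30 fell and 8 rose, while 48 missed the threshold, with a median log2 difference of -0.11. The share called, 44.2%, was near the 41.4% of all tested genes, and 34.9% fell against 21.6%. MDC1, which holds repair factors at damaged chromatin, fell 1.57-fold from 189.9 ± 11.2 CPM to 122 ± 4.94 CPM (edgeR adjusted p = 2.71e-06). FAAP100, a subunit of the Fanconi core beside FANCL, fell 1.65-fold from 71.1 ± 5.51 CPM to 42.7 ± 1.74 CPM. UBE2T, the ubiquitin-conjugating enzyme that works with FANCL, fell 1.33-fold from 66.3 ± 1.17 CPM to 49.8 ± 1.70 CPM. RAD54L, a motor protein of strand exchange, fell 1.57-fold, and PAXX, a Ku-binding partner of XRCC4 in end joining, fell 1.71-fold (edgeR adjusted p from 5.15e-06 to 7.80e-05 for these 4 genes). FANCL thus rose while FAAP100 and UBE2T, with which it works, fell.

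RPA2, a subunit of the protein that coats single-stranded DNA before BRCA2 acts, rose 1.497-fold from 99.8 ± 7.57 CPM to 151 ± 3.64 CPM (edgeR adjusted p = 8.52e-06). RPA1 and RPA3, subunits of the same protein, did not pass (edgeR adjusted p = 0.954 and 0.211). WDR48, cofactor of the enzyme that removes ubiquitin from FANCD2, rose 1.31-fold. RNF168 and RNF8, the ubiquitin ligases that recruit TP53BP1, rose 1.29-fold and 1.18-fold (edgeR adjusted p from 0.000178 to 0.00905 for these 3 genes), and RNF8 lost its call with GC and length trends removed (log2 0.15). MCMDC2 rose 2.08-fold at about 1 CPM and SHLD2, of the shieldin complex below TP53BP1, 1.11-fold (edgeR adjusted p = 0.0324 and 0.0386). Both calls were lost without MLL4KO replicate 1 or 3, that of MCMDC2 also without MLL4WT replicate 2, and that of SHLD2 without MLL4WT replicate 3 or MLL4KO replicate 2. MAD2L2, also of shieldin, fell 1.18-fold (edgeR adjusted p = 0.0169), and SHLD1 and SHLD3 did not pass (edgeR adjusted p = 0.733 and 0.851). By role, 5 of 9 Fanconi partners and 5 of 12 nuclease and dissolution genes fell and none of either rose, while 4 of 11 ubiquitin signalling genes rose and 4 fell. The shares called were 55.6%, 41.7% and 72.7% against 41.4% of all tested genes, so that of the nuclease genes was at the background.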

How the data were processed

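Messenger RNA of 3 MLL4WT and 3 MLL4KO libraries was sequenced after poly(A) selection, per the labels' protocols. The authors deposited expected counts per Ensembl gene, all whole numbers. Salmon 1.8.0, DESeq2 1.44.0 and hg38 stand in the submitters' processing notes, which give them no role. No label tells whether the kit keeps strand. Genes were matched by ID to GENCODE release 29. The counts were tested with edgeR 4.0.16 in R 4.3.3 (filterByExpr, TMM, robust quasi-likelihood, 4 residual degrees of freedom) with Benjamini-Hochberg adjustment over 14543 genes, and the fit was tested on simulated data. A fold change's SE is its size over the square root of F. Alternatives used DESeq2 1.42.0, limma 3.58.1 and other scalings, filters and left-out libraries. With 3 counts as the floor, MLL4WT replicate 1 resolves 0.446 CPM and the others 0.149 to 0.206 CPM. All 39 genes are named. Full values are given for called genes of at least 1.2-fold and 6 central genes. From the partner list the 6 smallest adjusted p in each direction are given, with other subunits of RPA and shieldin. The genes and lists were chosen with earlier results of these data known. A few genes picked by this rule are left unreported.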

Additional observations from a re-analysis of the deposited data

How the results depend on the processing

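Of the 16 called repair genes, 11 kept their call in 18 other settings: BRIP1 and FANCL among the rises, and BRCA1, RAD51D, XRCC2, XRCC3, ATR, ATRIP, FANCI, RECQL4 and XRCC4 among the falls. Repair genes that rose numbered 6 with total counts only and 5 with upper quartile factors. Partner genes that rose numbered 5 by the DESeq2 Wald test, 4 after thinning to the shallowest library and 5 with GC and length trends removed together with the replicate block. Leaving out each library in turn, 2 to 4 repair genes rose and 10 to 15 fell, and 4 to 10 partner genes rose and 22 to 33 fell. The cause was not tested. With total counts only, all genes that rose numbered 3706 against 2885, and all genes that fell numbered 2394 against 3136. With the replicate block, 3 repair genes rose and 12 fell, FANCF losing its call (edgeR adjusted p = 0.0836); deviations of same-numbered libraries correlated at 0.0199, 0.0288 and -0.0013, MLL4WT replicate 2 was closest to MLL4KO replicate 3 (0.0344), and the numbers were not taken to pair libraries. Depth limits the scarcest genes: RAD51B had 14 to 43 counts per library and FANCF 27 to 60.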
